A study of Homo sapiens with 12 samples.

Results

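Compound a6 was set beside compound 1 in MDA-MB-231 cells, a long-established line from a human breast cancer of the triple-negative type, over the 15251 genes present in the authors' tables of both compounds, of 27146 genes in any table of the series. The rule matched genes by name, and only 4 genes of the a6 table lacked a value with compound 1. The compound 1 table was longer, with 27126 genes against 15255 in the a6 table. Its lowest mean normalized count was 0.145, against 9.31 in the a6 table. Presence in both thus acted as a count filter on the a6 and Ctrl libraries. A gene low in Ctrl could enter if a6 raised it, but not if compound 1 alone did. The study has 4 groups of 3 libraries, described in the labels as biological replicates: Ctrl (DMSO), SAHA, compound 1 and a6. Each compound was given at 2.5 µM for 48 h. The labels place SAHA and compound 1 among agents with a single target, and a6 among agents with both targets, histone deacetylases (HDACs) and G-quadruplexes (G4s). They do not say which target compound 1 has, and all cells come from 1 cell line, so the comparison holds for this line alone.

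HDACs remove acetyl groups from histones and other proteins, and their inhibitors raise and lower many genes in tumour cells, the cell cycle inhibitor CDKN1A among the best known. G4s are stacked structures that guanine-rich DNA or RNA can fold into. They are frequent in promoters of growth genes such as MYC, and small molecules that bind them can disturb transcription and replication. The comparison asks which genes respond differently to an agent with both targets and to one with a single target, at the same dose and time.

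The measurements are the authors' DESeq2 fold changes of each compound against Ctrl, with their standard errors. No column gives a value per library, so replicate values cannot be shown and total depth per library is unknown. Mean levels below were computed from the authors' mean normalized counts and fold changes. The tables were normalized separately, and the same Ctrl libraries enter both: the computed log2 Ctrl level differed by a constant -0.03 between tables, with a standard deviation of 0.00214 across genes. Of the markers of this line, vimentin (VIM) and AXL had mean normalized counts of 20669 and 20472 in Ctrl, and the oestrogen receptor gene ESR1 and the E-cadherin gene CDH1 had 0.66 and 5.06. SPARC, which was listed as high in this line, had 24. ERBB2, listed as low in this line, had 2055, near EGFR at 2561, so SPARC and ERBB2 went against the list. EPCAM, also listed as low, had 168 and so was not absent. The median mean count in the a6 table, over genes in both tables, was 231. Mitochondrially encoded genes, a sign of RNA quality, lay at a median log2 fold change of -0.23 with compound 1 and -0.01 with a6. Their part in the differences below was not tested.

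Promoter stretches are given for genes on which the results turn, as the 250 bases before the RefSeq start site on GRCh38.p14, written 5′ to 3′ on the gene's own strand. TRNP1 was the gene higher with a6 and CEMIP the gene with the lowest statistic. Capitals in the TRNP1 line mark matches to the canonical G4 pattern, in which runs of G are separated by short loops of any base, G included. The marked letters are a long run of G, a C and a short run of G, so they show no distinct loops. No stretch of the CEMIP window matched this pattern on either strand.

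TRNP1: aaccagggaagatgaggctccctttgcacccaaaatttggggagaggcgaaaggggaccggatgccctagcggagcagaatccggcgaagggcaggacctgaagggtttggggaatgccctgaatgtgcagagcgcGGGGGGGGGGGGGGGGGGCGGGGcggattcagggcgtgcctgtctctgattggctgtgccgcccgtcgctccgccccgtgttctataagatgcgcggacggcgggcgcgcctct
CEMIP: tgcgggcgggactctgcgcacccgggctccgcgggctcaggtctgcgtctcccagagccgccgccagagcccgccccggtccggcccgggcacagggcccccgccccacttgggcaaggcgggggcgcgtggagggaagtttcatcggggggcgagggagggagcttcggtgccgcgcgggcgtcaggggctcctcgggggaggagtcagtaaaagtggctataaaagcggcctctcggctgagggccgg

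The TRNP1 window is chr1:26993442-26993691 and the CEMIP window chr15:80779120-80779369, both on the plus strand. CA9, a hypoxia-induced gene, is shown with the core of the hypoxia response element ACGTG in capitals, which here lies on the opposite strand and so reads CACGT. DDX60 and IFI6 are a pair of interferon-induced genes that lay on opposite sides of 0. Capitals there mark GAAA, any 2 bases and GAAA, the core of the interferon-stimulated response element.

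CA9: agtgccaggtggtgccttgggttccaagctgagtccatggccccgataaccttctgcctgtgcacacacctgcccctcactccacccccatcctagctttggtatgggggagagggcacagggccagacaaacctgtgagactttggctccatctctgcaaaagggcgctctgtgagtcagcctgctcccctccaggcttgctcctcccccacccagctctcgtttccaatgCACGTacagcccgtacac
DDX60: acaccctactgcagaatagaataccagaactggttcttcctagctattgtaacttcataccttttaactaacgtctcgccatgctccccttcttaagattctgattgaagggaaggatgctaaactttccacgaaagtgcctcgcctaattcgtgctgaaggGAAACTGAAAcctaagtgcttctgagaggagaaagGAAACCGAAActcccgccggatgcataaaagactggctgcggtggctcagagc
IFI6: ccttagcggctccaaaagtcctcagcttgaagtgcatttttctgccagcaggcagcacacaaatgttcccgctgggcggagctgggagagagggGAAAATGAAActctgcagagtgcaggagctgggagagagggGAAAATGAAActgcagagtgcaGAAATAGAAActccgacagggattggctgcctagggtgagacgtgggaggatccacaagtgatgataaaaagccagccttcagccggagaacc

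These windows are chr9:35673678-35673927 (plus strand), chr4:168318753-168319002 (minus strand) and chr1:27672193-27672442 (minus strand). This motif occurred 2 times in the DDX60 window and 3 times in the IFI6 window, searched on both strands. It occurred in 2.42% of the 15141 windows of genes in both tables. ACGTG occurred in 22.3% of those windows and the G4 pattern in 32.3%. A match describes these letters and is not a bound site.

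Few genes separated the compounds. With an error that sums both deposited standard errors, 5 genes passed an adjusted p of 0.05 (z test on the authors' DESeq2 estimates), 0.0328% of the 15251 tested. CEMIP, TAGLN, OASL and PLAAT4 were lower with a6 than with compound 1 (0.0262%), and TRNP1 was higher (0.00656%). In all 5 the level with compound 1 lay near Ctrl and the level with a6 lay away from it. An unadjusted p under 0.05 was found for 222 genes, 1.46% of those tested, and for 5.55% with the error correlation described below. With the stricter Benjamini-Yekutieli adjustment CEMIP alone passed. The summed error counts the spread of the shared Ctrl libraries in each fold change, so it is wider than the spread between a6 and compound 1 alone.

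CEMIP binds hyaluronan and takes part in its breakdown, and is known for its part in cell migration. The gene lies at chr15:80779343-80951776 on GRCh38. Its mean normalized count was 439 in Ctrl and 85.8 with a6 in the a6 table, and 448 in Ctrl and 436 with compound 1 in the compound 1 table. The a6 level was thus the only one of these levels below Ctrl by more than its error. On the log2 scale CEMIP was at -2.35 with a6 and at -0.04 with compound 1 in the authors' deposited tables. The difference was -2.31 with a standard error of 0.43, a 4.98-fold lower level with a6 (adjusted p = 0.0012 by the z test). Its 95% interval ran from -3.16 to -1.47.

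TAGLN, transgelin, binds actin and is a mark of smooth muscle, at chr11:117199321-117204782. Its mean normalized count was 962 in Ctrl and 225 with a6, and 982 in Ctrl and 769 with compound 1. TAGLN was the gene of the 5 in which compound 1 lay farthest from Ctrl in the same direction as a6, at -0.35 (standard error 0.28) in the authors' deposited table. The difference was -1.74 with a standard error of 0.40, with a 95% interval from -2.52 to -0.97 (adjusted p = 0.0336, z test). This call was lost when the median difference over all genes, -0.05, was subtracted (adjusted p = 0.0577 by the same z test).

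OASL is an interferon-induced protein of the oligoadenylate synthetase family that takes part in antiviral sensing, at chr12:121019111-121039242. Its mean normalized count was 280 in Ctrl and 96.2 with a6, and 286 in Ctrl and 334 with compound 1. The fold changes therefore pointed in opposite directions, -1.54 with a6 and 0.23 with compound 1 in the authors' deposited tables, the latter with a standard error of 0.22. The difference was -1.77 (standard error 0.37; 95% interval from -2.49 to -1.04; adjusted p = 0.00883, z test).

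PLAAT4 is an enzyme of phospholipid metabolism whose gene is induced by retinoids and interferon, at chr11:63536809-63546462. The mean normalized count was 241 in Ctrl and 70.4 with a6, and 246 in Ctrl and 256 with compound 1. Levels in Ctrl and with compound 1 were close, and the a6 level stood apart. The PLAAT4 difference was -1.83 (standard error 0.40; 95% interval from -2.61 to -1.05; adjusted p = 0.0177, z test).

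TRNP1 is a nuclear protein known from the expansion of the developing cerebral cortex, at chr1:26993707-27000898. Its mean normalized count rose from 317 in Ctrl to 1055 with a6 and was 324 in Ctrl and 303 with compound 1. The difference was 1.83 with a standard error of 0.38, a 3.55-fold higher level with a6, with an interval from 1.09 to 2.56 (adjusted p = 0.00856, z test). Of the 5 genes, 4 are in the authors' deposited lists of G4-related genes changed with a6. These lists give 11 G4s for TAGLN, 6 for CEMIP, 2 for PLAAT4 and 1 for TRNP1. The sources used here do not say over which region G4s were counted. In OASL the compound 1 fold change equalled 12.8% of the difference, the highest share of the 5, and in TRNP1 5.16%. In TAGLN the share was -20.3%, as compound 1 lay on the same side of Ctrl as a6. The unadjusted p of compound 1 was 0.304 in OASL, 0.707 in TRNP1 and 0.212 in TAGLN (DESeq2), so these shares cannot be told from 0. The G4 lists were made from the a6 comparison itself and are no independent evidence.

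**Figure D1:**
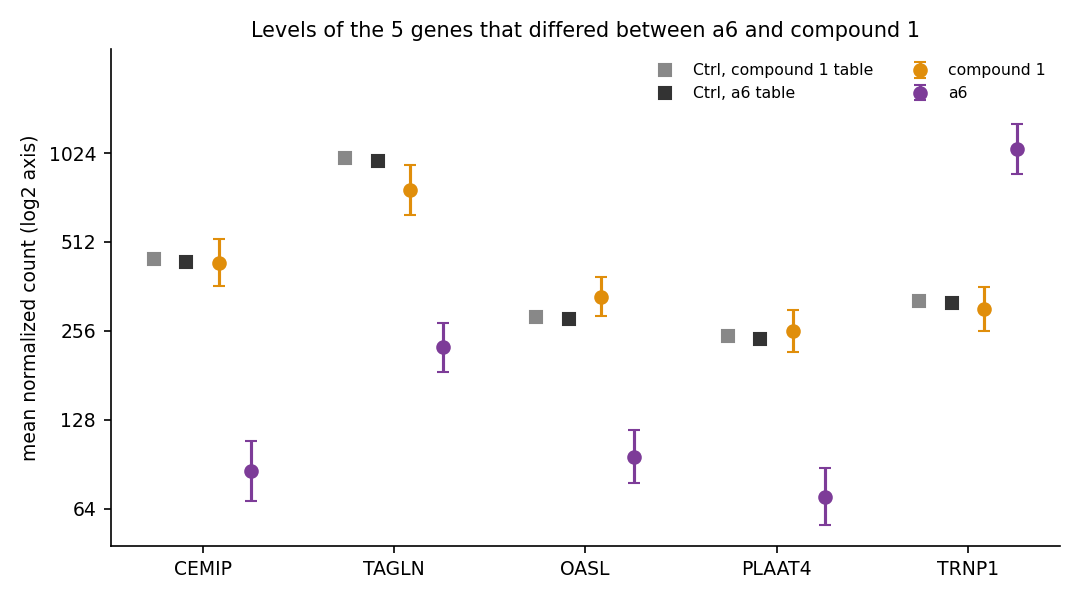
Mean normalized count (log2 axis) of the 5 genes in Ctrl, as computed from each table (squares), with compound 1 and with a6 (circles; bars are 1 standard error of the fold change against Ctrl). The a6 circles of CEMIP, TAGLN, OASL and PLAAT4 sit below all other symbols of the gene and that of TRNP1 at 1055 sits above them.

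Taking into account that both fold changes share their Ctrl libraries, with an error correlation of 0.5, 44 genes passed an adjusted p of 0.05 (z test), 0.289% of those tested. Of these, 25 were lower with a6 (0.164%) and 19 higher (0.125%), and the 5 genes above were among them. Taking the Ctrl part out of each standard error gene by gene, an alternative chosen after seeing the data, gave 46 genes (0.302%), 21 higher (0.138%), of which 43 were shared with the 44. HTRA3 was the gene not shared. The values of the other 39 genes below are those of genes that passed with the correlation and not with the summed error. Over all 44, the size of the log2 fold change with a6 ran from 0.93 to 2.76 with a median of 1.50. With compound 1 it had a median of 0.165, and the lowest unadjusted p with compound 1 was 0.054 in the authors' deposited table. Against Ctrl itself, over the same 15251 genes, 89 passed the authors' tests with a6 (0.584%; 0.243% higher and 0.341% lower) and 0 with compound 1 (DESeq2, adjusted p), where 27 had an unadjusted p under 0.05 (0.177%). A threshold of 0.05 passes a larger share even where nothing changes, so the deposited compound 1 errors are wide for its fold changes. The 0 calls thus do not show that compound 1 changed no gene.

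**Figure D2:**
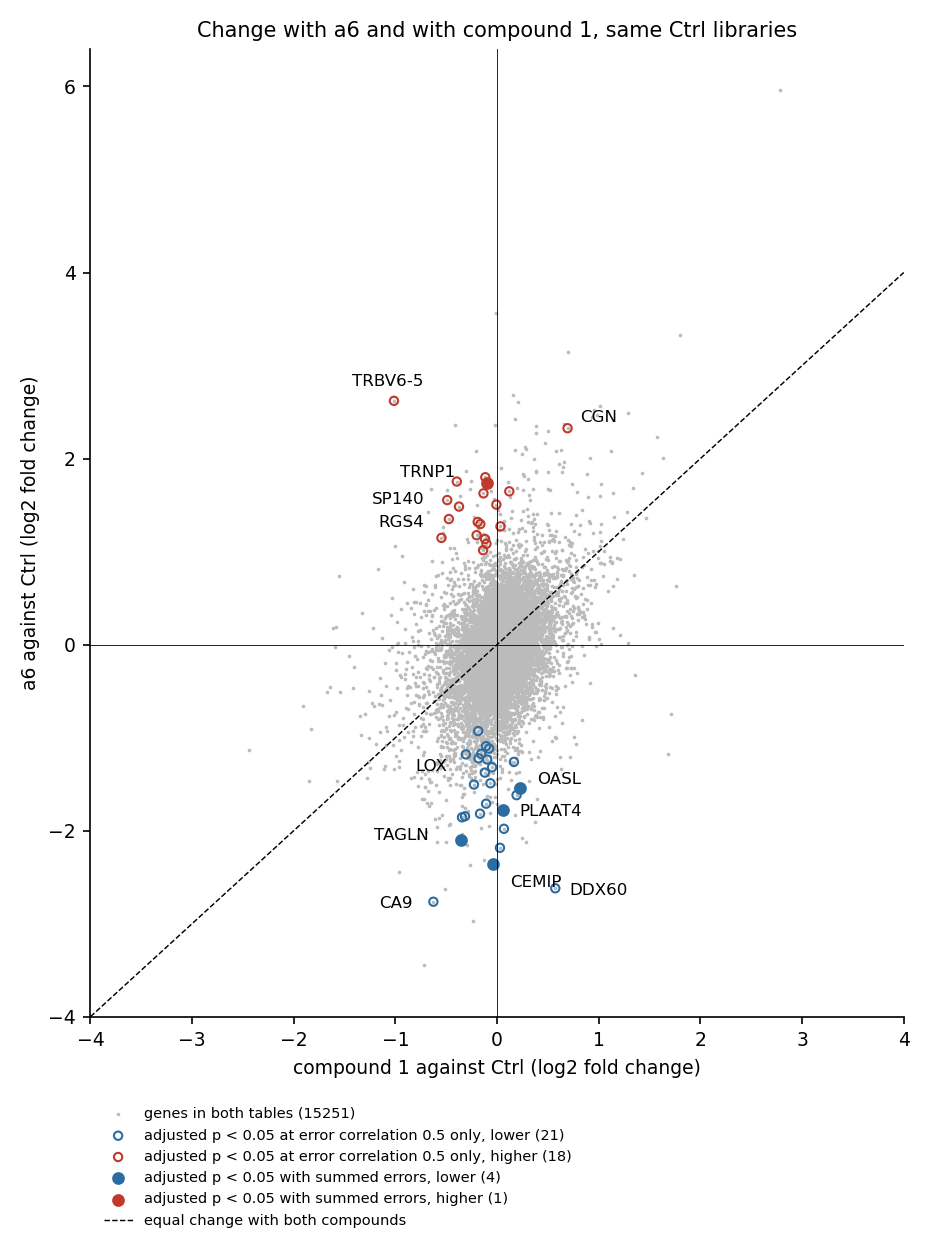
Each point is 1 of 15251 genes: horizontal, log2 fold change of compound 1 against Ctrl, vertical, of a6 against Ctrl. Filled points are the 5 genes past the threshold with summed errors and open circles the 39 that pass at an error correlation of 0.5 only; most lie near 0 horizontally and away from 0 vertically. The vertical axis is longer than the horizontal one, and both comparisons use the same Ctrl libraries.

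Among the 39, several act at the cell surface or in the matrix; this grouping was made after the values were seen. PI16, a secreted peptidase inhibitor known from fibroblasts, had a mean normalized count of 82.8 in Ctrl, 18.2 with a6 and 86.3 with compound 1. Its difference of -2.21 with a summed standard error of 0.55 was the nearest to the threshold (adjusted p = 0.137, and 8.78e-05 with the correlation, z test). Of the other fibroblast markers only PDGFRB and COL1A1 were measured in both tables, and the part of such cells in the PI16 value was not tested. LOX, which cross-links collagen, was at 922 in Ctrl, 407 with a6 and 760 with compound 1, a difference of -0.87. HTRA3, a secreted serine protease, differed by -1.65, and OLFML2A, an olfactomedin domain protein of the matrix, by -1.27. MUC1, a transmembrane mucin, and CELSR1, a cadherin of planar polarity, were at -1.43 and -1.26.

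CGN, the tight junction protein cingulin, was at 80.1 in Ctrl, 402 with a6 and 132 with compound 1. It was the gene of the 44 with the highest fold change with compound 1, 0.69 (standard error 0.36) in the authors' deposited table, so both compounds lay above Ctrl. The CGN difference was 1.63 with a summed standard error of 0.52 and an interval from 0.62 to 2.65 (adjusted p = 0.0062 with the correlation, z test). COL17A1, a collagen of hemidesmosomes, was at 160, 387 and 168, a difference of 1.24 (adjusted p = 6.03e-04 with the correlation by the z test).

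Interferon-induced genes were found in both directions. DDX60, an RNA helicase of antiviral sensing, was at 74.6 in Ctrl, 12.1 with a6 and 114 with compound 1. Its difference, -3.19 with a summed standard error of 0.89, was the lowest of all 15251 genes. IFI6, a mitochondrial protein induced by interferon, was at 171 in Ctrl, 484 with a6 and 173 with compound 1, a difference of 1.51. SP140, a nuclear body protein of immune cells, was at 40.7, 120 and 29.5, a difference of 2.04. The interferon motif shown above in capitals is thus found in the windows of a gene lower and of a gene higher with a6.

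CA9, a carbonic anhydrase that exports acid under hypoxia, was at 499 in Ctrl, 73.5 with a6 and 330 with compound 1. The CA9 difference was -2.14 with a summed standard error of 0.67 and an interval from -3.45 to -0.82 (adjusted p = 0.0062 with the correlation, z test). CYP1B1, a cytochrome P450 induced through the aryl hydrocarbon receptor, was at 1177 in Ctrl, 360 with a6 and 1116 with compound 1, a difference of -1.60. CYP1B1-AS1 overlaps it on the other strand and was at -1.43; without knowledge of strand in the counting, their reads cannot be told apart. SCD, the stearoyl-CoA desaturase that makes monounsaturated fatty acids, was at 3102, 1629 and 2784, and its difference of -0.74 was the smallest of the 44. ADI1 of the methionine salvage pathway, FUT11 and MGAT5B of protein glycosylation, and PHYHD1 lay between -1.53 and -0.98. CYP24A1, which breaks down active vitamin D, lay on the other side at 1.46.

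RGS4, a regulator of G protein signalling, was at 79.8 in Ctrl, 203 with a6 and 58.8 with compound 1, a difference of 1.82 (adjusted p = 4.22e-04 with the correlation, z test). FLI1, an ETS transcription factor of blood and endothelial cells, was at 39.4, 110 and 31.0, a difference of 1.86. CD45 (PTPRC), the general marker of blood cells, was not in both tables, and the part of such cells in the FLI1 value was not tested. EDNRB, an endothelin receptor, differed by 1.51 and NPPB, the natriuretic peptide B gene, by 1.38. The taste receptor subunit TAS1R3 differed by 1.91 and the immune receptor VSTM1 by 1.76. On the lower side were IGFBP6, which binds insulin-like growth factors, at -1.14, the RAS effector RIN1 at -1.04, the iron-binding lipocalin LCN2 at -1.81 and the glutamate receptor subunit GRIK4 at -1.28. TRBV6-5 at 3.63, ANXA8L1 at -1.51 and the pseudogene RPL13AP20 at 1.25 have close copies, so their shares of reads are uncertain. TRBV6-5 was at 6.01 in Ctrl, 36.9 with a6 and 3.08 with compound 1. Its Ctrl level lay below 9.31, the lowest mean count of the a6 table. It thus entered through its a6 level, and its high difference is in part built in. LNCOG and HHLA3-AS1, noncoding RNAs, were at 1.53 and 2.15, C11orf86 at -2.05, and a pair of long noncoding RNAs with clone-type names at 1.15 and 1.69.

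**Figure D3:**
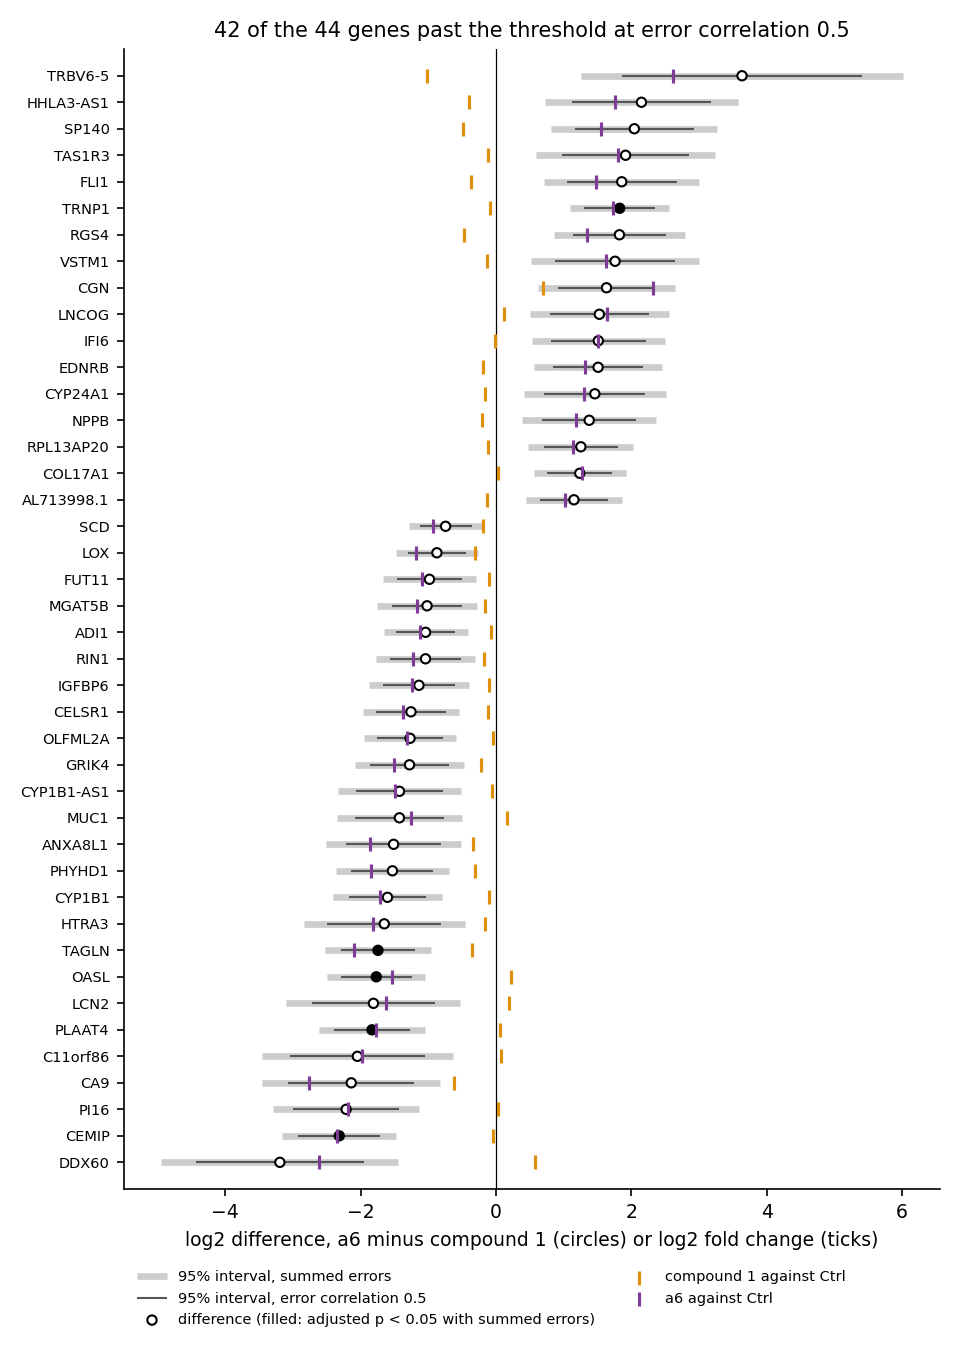
Circles give the log2 difference, a6 minus compound 1, of 42 of the 44 genes, with 95% intervals from summed errors (light) and with an error correlation of 0.5 (dark). Ticks give each compound's log2 fold change against Ctrl. No interval reaches 0, and the compound 1 ticks lie between -1.01 and 0.69.

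Of the 44 genes, 27 had a promoter window in the RefSeq table. The canonical G4 pattern was found in 10 of them, 3 higher and 7 lower with a6: EDNRB, RGS4, TRNP1, GRIK4, HTRA3, IGFBP6, LOX, MUC1, OLFML2A and PHYHD1. It was found in 32.3% of the windows of all genes in both tables. The interferon motif was found in 4 of the 27 windows (COL17A1, DDX60, IFI6 and RGS4), and in 2.42% of the windows of all genes in both tables. ACGTG was found in 8, ADI1, CA9, CGN, EDNRB, IFI6, LOX, RIN1 and SP140, and in 22.3% of all those windows. No motif count was tested against its share. The CArG box of serum response factor was found in 1, HTRA3, and in 1.06% of all those windows. In the authors' deposited lists of G4-related genes, 20 of the 44 are named, with the highest number of G4s, 19, for IGFBP6. These lists hold only genes changed with a6, and in all 44 the size of the a6 log2 fold change was at least 0.93. The count is therefore built in to a large part and does not show an excess of G4-related genes.

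Gene lists were compared with all 15251 genes, of which 56.1% had a difference below 0 and whose median difference was -0.05. The lists were chosen with earlier results of these data known, so counts of called members are no independent evidence for a theme. Of the 40 measured hypoxia and glycolysis genes, 0 passed with the summed error by the z test (3 at an unadjusted p under 0.05, against 1.46% of all genes) and 1, CA9, was lower with the correlation, against 0.164%. The median difference of this list was -0.31, with 31 of 40 members below 0. Members lay lower than Ctrl with both compounds: the median log2 fold change was -0.38 with a6 and -0.16 with compound 1. PPFIA4, a liprin and hypoxia-induced gene, was at 231 in Ctrl, 63.7 with a6 and 159 with compound 1, a difference of -1.29 with an interval from -2.32 to -0.26.

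In the extracellular matrix and mesenchymal list, 1 of 32 measured members was lower with a6 by the summed error, CEMIP, and 0 higher, against 0.0262% and 0.00656% of all genes. With the correlation 3 were lower, CEMIP, HTRA3 and LOX, against 0.164% of all genes. An unadjusted p under 0.05 was found for 7 of the 32, against 1.46%. The median difference was -0.28, with 23 of 32 below 0 and a range from -2.31 to 1.86. Among 22 actin contractile and YAP target genes TAGLN alone was called by the z test, lower with a6 with either error. Of all genes 0.0262% were lower with the summed error and 0.164% with the correlation. An unadjusted p under 0.05 was found for 1 of the 22, against 1.46% of all genes, and the median was -0.07. The YAP targets CCN1 and CCN2 were at -0.20 with a standard error of 0.48 and at 0.38 with 0.40. In the epithelial junction and keratin list 0 of 24 passed with the summed error by the z test (4 at an unadjusted p under 0.05, against 1.46% of all genes), and 2 were higher with the correlation, CGN among them, against 0.125%. The list as a whole had a median of -0.05, the value of all genes.

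Interferon response genes had a median difference of -0.45, with 28 of 35 below 0. OASL was lower with the summed error (0.0262% of all genes). With the correlation OASL and DDX60 were lower (0.164% of all genes) and IFI6 and SP140 higher (0.125%). An unadjusted p under 0.05 was found for 7 of the 35, against 1.46% of all genes. Other members lay between these without a call: IFIT1 was at -1.04 with a standard error of 0.44 and IFIT2 at -1.57 with 0.81. The list median against Ctrl was -0.25 with a6 and 0.06 with compound 1.

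Unfolded protein and ATF4 response genes, which serve protein folding and amino acid supply under stress, had a median difference of -0.39 with 29 of 32 below 0. In this list 0 passed by the z test with either error, and 0 had an unadjusted p under 0.05 with the summed error. Here 29 of 32 members lay above 0 with compound 1, at a median of 0.19, while the a6 median was -0.08. PHGDH, the first enzyme of serine synthesis, was at 104 in Ctrl, 45.6 with a6 and 110 with compound 1, a difference of -1.24 with an interval from -2.61 to 0.13. PSPH, the last enzyme of that pathway, was at -0.50 with an interval from -1.11 to 0.10.

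The NF-kB and inflammatory list had a median difference of -0.35 with 21 of 24 below 0, a median with compound 1 of 0.22 and with a6 of -0.13. By the z test on DESeq2 estimates 0 passed with either error, and 2 had an unadjusted p under 0.05. CSF2, the growth factor GM-CSF, was at 85.7 in Ctrl, 68.1 with a6 and 225 with compound 1, a difference of -1.69 with an interval from -3.24 to -0.14. CSF3, the growth factor G-CSF, was at 23.7, 10.4 and 77.4, a difference of -2.86 with a standard error of 1.23. The cytokine gene IL6 was at -1.83 with a standard error of 1.71, a difference near the size of its error.

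**Figure D4:**
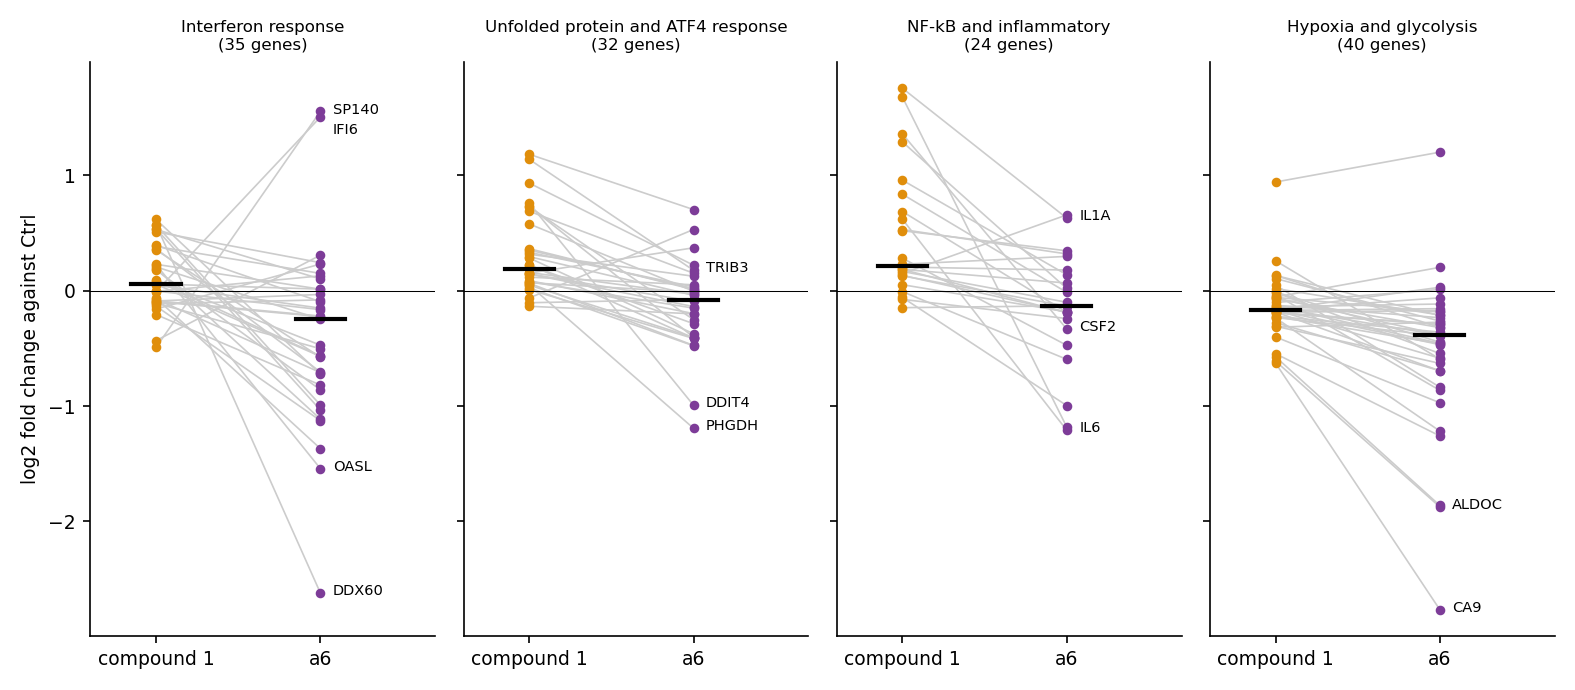
Log2 fold change against Ctrl of every measured member of 4 lists, with compound 1 (left in each panel) and a6 (right); lines join a gene and bars are medians. In the interferon list SP140 and IFI6 lie above 1 with a6 and DDX60 at -2.62, while the unfolded protein and NF-kB medians lie above 0 with compound 1 and below 0 with a6.

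Lists tied to the 2 named targets held 0 called genes by the z test with either error, and 0, 0, 0 and 1 at an unadjusted p under 0.05. They were the 18 HDAC and sirtuin genes, 37 G4 helicase and binding genes, 24 oncogenes with promoter G4s and 23 genes widely induced by HDAC inhibitors. Their median differences were -0.14, -0.13, -0.18 and -0.09, each farther below 0 than the -0.05 of all genes. Differences below 0 were found in 12 of 18, 26 of 37, 20 of 24 and 13 of 23 members. These shares are 66.7%, 70.3%, 83.3% and 56.5%, against 56.1% of all genes. The 95% interval of the difference lay within 2-fold for 9 of the 18, 23 of the 37, 10 of the 24 and 8 of the 23, in the same order. These are 50%, 62.2%, 41.7% and 34.8%, against 36.9% of all 15251 genes. The gene with an unadjusted p under 0.05 was CPA4, a carboxypeptidase known as a target of HDAC inhibitors, at 630 in Ctrl, 884 with a6 and 595 with compound 1. Its difference was 0.60 with an interval from 0.04 to 1.16. SNCG, a synuclein of the same list, was at -0.93 with an interval from -2.07 to 0.21. The deacetylases SIRT1 and SIRT4 were at -0.42 and 0.96 with standard errors of 0.49 and 0.87. CDKN1A was at 0.45 with an interval from -0.69 to 1.60, which includes a 2-fold higher level with a6.

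MYC was at 4237 in Ctrl, 3360 with a6 and 4902 with compound 1, a difference of -0.51 with an interval from -1.64 to 0.61. VEGFA, the vascular growth factor, was at -0.85 with an interval from -2.0 to 0.30. TERT, the catalytic subunit of telomerase, was at -0.11 with an interval from -1.16 to 0.94, and BCL2, an inhibitor of apoptosis, at 0.04 with an interval from -0.97 to 1.06. HIF1A, the oxygen-sensing transcription factor, was at 1622 in Ctrl, 909 with a6 and 1716 with compound 1, a difference of -0.89 with an interval from -1.89 to 0.12. These intervals include both no difference and, for MYC, VEGFA, TERT and HIF1A, a 2-fold lower level with a6. In the G4 helicase and binding list the telomere protein POT1 was at -0.82 with an interval from -1.72 to 0.08. ATRX, a chromatin remodeller, was at -1.32 with an interval from -2.92 to 0.28, and the protease gene ADAM10 of the G4 oncogene list at -0.79 with one from -1.72 to 0.13.

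The cell cycle, replication, cholesterol and ribosome lists had median differences near the -0.05 of all genes. Cell cycle and mitosis genes had a median difference of -0.09 over 42 members and DNA replication and repair genes -0.04 over 44. Among them the kinesin KIF18A was at -1.14 with a standard error of 0.64, the spindle protein ASPM at -0.79 with 0.47 and the polymerase subunit POLA2 at 0.41 with 0.45. Cholesterol synthesis lay at 0.01 and ribosome biogenesis at 0.02. NRF2 targets lay at -0.17, p53 targets at -0.19 and AP-1 and immediate early genes at -0.15, farther below 0 than all genes. All of these lists held 0 called genes with either error (z test), with 2 genes in all at an unadjusted p under 0.05, in the replication and cholesterol lists. The ribosome assembly factors RRS1 and PPAN were at 0.74 and 0.53. The NRF2 target AKR1C1 was at -1.39 with a standard error of 0.88, and KEAP1, which holds NRF2 in check, at -0.38 with 0.28. Of the p53 targets the exonuclease AEN was at 0.55 and the repair protein DDB2 at -0.48, and of the immediate early list ETV4 was at 0.41 and IER2 at 0.40, all with intervals that include 0. Mitochondrially encoded genes were above 0 in 13 of 13 members with a median of 0.19, from 0.07 for MT-ND4 to 0.79 for MT-ATP8. The latter had an interval from -0.38 to 1.95, and MT-ND5 was at 0.38 with an interval from -0.29 to 1.04.

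Markers of other cell types were few. Of 11 fibroblast markers 3 were measured in both tables, with summed mean normalized counts of 650 in Ctrl, 518 with a6 and 598 with compound 1, and DCN and LUM were not in both. COL1A1 was at 0.18 with a standard error of 0.45. Of 14 haematopoietic markers 3 were measured, CSF1R, CD14 and FLI1, summing to 139 in Ctrl, 160 with a6 and 111 with compound 1; CSF1R was at -0.93 with a standard error of 0.51. Of 11 endothelial markers 5 were measured, summing to 3709, 3242 and 3529, and PECAM1 and CDH5 were not in both tables. KDR was at -0.84 and EGFL7 at -0.35, with standard errors of 0.67 and 0.54. Of 24 neuronal markers 4 were measured, with DCLK1 at 2.45 and L1CAM at -0.86, and standard errors of 1.13 and 0.42. DCLK1 was at 4.42 in Ctrl, 39.2 with a6 and 7.27 with compound 1. Its Ctrl level lay below 9.31, the lowest mean count of the a6 table, so it entered through its a6 level. The labels name MDA-MB-231 alone for every library, so these genes were read in cultures of that line. Whether any other cells were present was not tested. Fewer cells expressing a gene and less of its RNA per cell cannot be told apart in these bulk libraries.

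**Figure D5:**
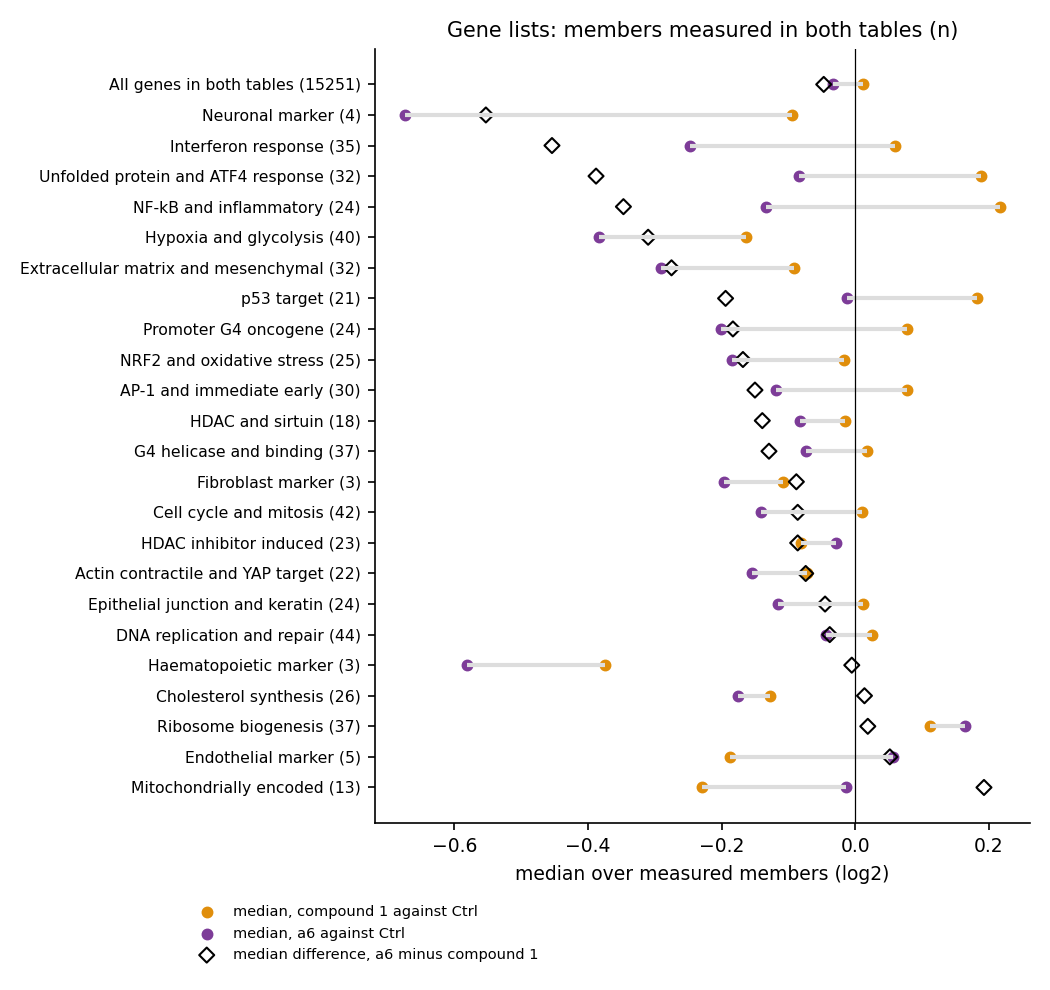
Median over measured members of each list (number in brackets) of the log2 fold change with compound 1, with a6 and of their difference, on a log2 axis. The median difference is taken over genes and need not equal the difference of the medians. It lies at -0.45, -0.39 and -0.35 in the interferon, unfolded protein and NF-kB lists and at -0.05 over all genes.

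The precision set what could be seen. The median standard error of a difference was 0.46 on the log2 scale, and 0.33 with the correlation. The median half-width of the 95% interval was 0.90, a 1.86-fold difference. This is the width for a single gene and not the size needed to pass after adjustment: the smallest difference called with the summed error was 3.35-fold. Differences of at least 2-fold were found in 495 genes, 212 higher and 283 lower with a6, of which 5 passed with the summed error. The statistic of compound 1 had a spread of 0.53 across genes against 1.01 for a6. The compound 1 errors are thus wide for the scatter of its fold changes, which also widens the error of the difference. A gene without a call is not shown to be equal with both compounds.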

How the data were processed

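RNA-seq of MDA-MB-231 was used from 3 Ctrl, 3 compound 1 and 3 a6 libraries, which enter 2 comparison tables. Reads were trimmed with cutadapt and compared with DESeq2 on GRCh38 (hg38), per the submitters' processing notes; for aligner, counter, strand and versions the sources used here say nothing. Per the file headers, the authors deposited for each gene its mean normalized count (signal), log2 fold change, that fold change's standard error, the Wald statistic (score), and p-value before and after adjustment. Recomputing the deposited score and Benjamini-Hochberg adjustment gave 0 mismatches. Depth per library is unknown. The library titles name biological replicates without saying whether each is its own culture; p-values therefore cover only variation among these libraries, which may be in part technical.

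The difference of the 2 log2 fold changes was tested with Python 3.11.15 and scipy 1.17.1: error as the root of summed squared standard errors, two-sided z test, Benjamini-Hochberg over 15251 genes. Levels assume equal groups. The lowest mean count in the a6 table was 9.31. The test was tested on simulated data. Members, lists, tests and alternatives were chosen with earlier results of these data known. The rule for named genes took the 15 highest and 15 lowest statistics among called genes whose mean count reached 50 and whose names are not those of clones or noncoding RNAs, the 5 of these with the largest share from compound 1, up to 2 members per list and direction, and MYC, TERT, VEGFA, BCL2 and CDKN1A; the genes that passed only with an error correlation, and other list members, were chosen after their values were seen. Some genes the rule takes are not reported here. The 23 lists were described by counts and medians, with no list test. Alternatives were error correlation, count filters of 10 and 50, an adjusted p under 0.01, a 2-fold limit, centring, scaled compound 1 errors and Benjamini-Yekutieli adjustment; Ctrl removal and a GC trend (lowess share 0.3, statsmodels 0.14.6) were added after seeing the data. Positions come from GENCODE 29 (98.8% of genes matched).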

Additional observations from a re-analysis of the deposited data

How the results depend on the processing

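No paired analysis was possible because the columns carry no value per library, and leaving out single libraries could not be run for the same reason. Of the 5 genes called (1 higher, 4 lower), an error correlation of 0.5 gave 44 (19 higher, 25 lower) and removal of the Ctrl term 46 (21 higher, 25 lower). Scaling the compound 1 errors by the spread of its statistic, 0.53, gave 20 (9 higher, 11 lower). An adjusted p under 0.01 left 3 (1 higher, 2 lower) and Benjamini-Yekutieli adjustment 1 (0 higher, 1 lower), CEMIP. Centring left 4. The count stayed at 5 with mean count filters of 10 and 50, a 2-fold limit and the GC trend removed, and the same 5 genes were shared each time. No named gene changed sign where it was called. Among the lists, the haematopoietic median moved to -0.93 at a mean count of at least 50. This is the value of CSF1R alone, the only measured member left by that filter, and so no median over several genes. All values rest on 3 libraries a group and on deposited errors. They hold for 1 cell line, 1 dose and 1 time.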
